A study of Mus musculus with 6 samples.

Results

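A set of 18 genes was close to silent in Dicer WT cells and expressed in Dicer KO cells. The genes were chosen by their group means in the exonic table of Dicer KO against Dicer WT, below 5 normalised counts in WT and 50 or more in KO. In these libraries 5 normalised counts stand for 0.235 CPM in WT, and 50 stand for 2.33 CPM in KO, where CPM scales a count to the total of exonic reads in a library. Of 23227 genes in the table, 22 lay past both thresholds, 0.0947% of all. Fgf21, Igf2bp3, Oas1a and Rsad2 were set aside by name, which leaves the 18. The rule also bars microRNA, small nucleolar and histone genes, of which none lay past both thresholds. Because the values of the WT and KO libraries chose these genes, their KO and WT values are given as a description, with no test.

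The study sequenced total RNA of mouse mesenchymal stem cells, which its labels also call fibroblasts, after removal of ribosomal RNA. Dicer WT (Dicer f/f) and Dicer KO (Dicer -/-) are immortalized lines grown from a single clone each, so a difference between genotypes and a difference between clones cannot be told apart. The other groups are WT cells that received a vector, either empty or with Pbx3, Sox9 or Tead4. All were cultured in Alpha-MEM with fetal bovine serum, with no further treatment. The labels list 1 sample per group, and the deposited means hold 2 libraries per group, of 6130267 to 23501655 exonic reads each. Nothing says whether these are separate cultures, so p-values measure only the spread between libraries, which may be technical.

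Dicer cuts microRNA precursors into mature microRNAs, which lower the stability and translation of messages that carry a match to their seed, bases 2 to 8 of the microRNA. A cell without Dicer lacks most microRNAs, and both direct targets and genes further downstream can then differ. Intronic reads of total RNA come largely from unspliced transcripts and so carry information on transcription that exonic reads alone do not.

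As a check of the labels, Dicer1 itself had 1492 and 1206 exonic reads in the WT libraries and 1020 and 1033 in KO, counts over the whole gene, which do not check the deletion itself. Pbx3 stood at 2820 and 3600 CPM in Pbx3 cells against 21.8 and 26.9 in vector cells, and Tead4 at 530 and 703 CPM in Tead4 cells against 4.08 and 4.09. Sox9 stood at 21.6 and 23.3 CPM in Sox9 cells against 14.4 and 5.59 in vector cells. It also reached 19.8 CPM in a Tead4 library and 18.7 in a WT library, so its level does not set the Sox9 cells clearly apart. Of 12 mesenchymal markers, 11 reached the minimum mean of 10 normalised counts, and Col1a1, Col1a2, Col3a1, Twist1 and Ly6a fell in KO (5 genes, limma with Benjamini-Hochberg adjustment). Their list summed to 6209 to 6260 CPM in the WT libraries and 4158 to 4641 in KO, and Thy1, a defining stromal marker, was at 0 in both groups. Of 12 leukocyte markers in the table, 2 reached that minimum and neither passed, with sums of 8.05 to 8.83 CPM in WT and 6.04 to 8.83 in KO. Ptprc, Emr1, Tyrobp, Laptm5 and Cd3e were among those with 0 reads in KO. Hepatocyte and gut markers summed to 0.972 to 1.64 CPM in WT and 2.70 to 2.77 in KO, with Ttr and Cdx2 at 0 in KO. Apob made up most of that sum, with 31 and 11 reads in WT and 58 and 52 in KO, and did not pass at 1.44 ± 0.49 (limma adjusted p = 0.104). Muscle markers summed to 96.1 to 141 CPM in WT and 51.6 to 76.8 in KO, with Myod1, Myog and Myh6 at 0 in KO. Endothelial markers summed to 0.775 to 1.57 CPM in WT and 0.724 to 0.936 in KO, and epithelial ones to 1.55 to 2.05 and 0.724 to 1.11. Of the epithelial markers Krt19 fell, from 31 and 31 reads in WT to 9 and 7 in KO. Krt8 went the other way, from 0 and 0 reads to 14 and 7, and was below the minimum mean. Neural markers summed to 4.61 to 5.18 CPM in WT and 6.42 to 10.9 in KO, where Mbp rose, and germ cell and pluripotency markers to 0.345 to 0.432 and 0.290 to 0.298.

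**Figure D1:**
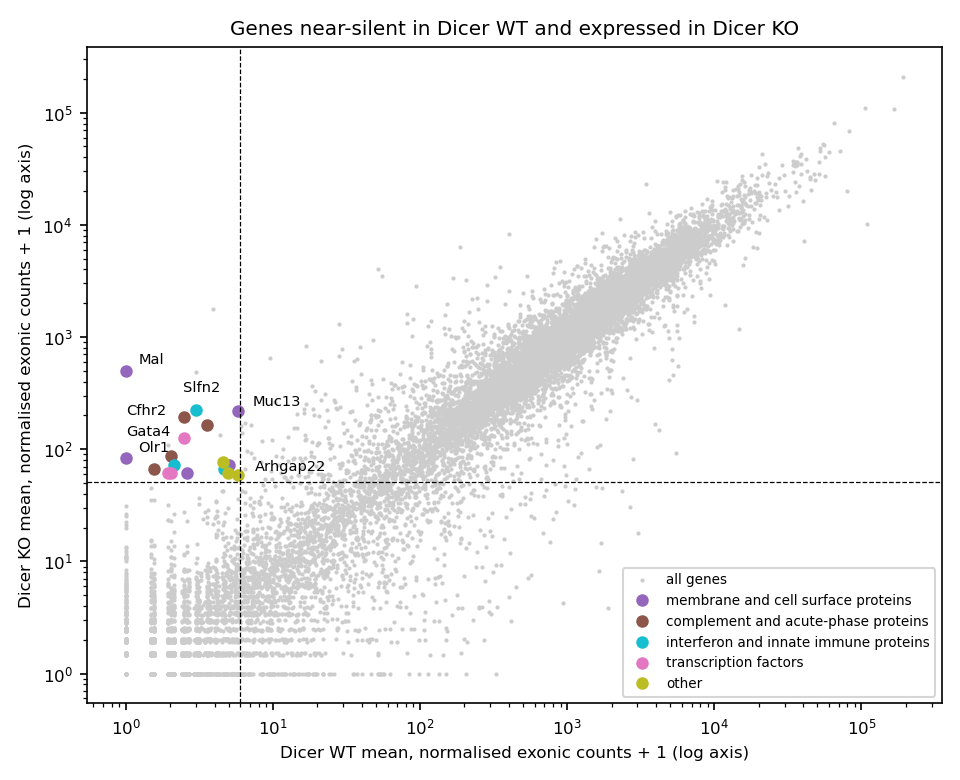
Mean normalised exonic counts plus 1 in Dicer WT (x axis) and Dicer KO (y axis) of all genes, both on log axes, with the 18 genes coloured by function class and the thresholds as dashed lines. Mal and Olr1 lie at 0 in WT, Mal has the highest KO mean at 500 normalised counts, and the 4 uncoloured points past both thresholds are the genes set aside by name.

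The set fell into 5 function classes, assigned by hand. Membrane and cell surface proteins were Mal, Muc13, Olr1, Gfra1 and Flrt2, complement and acute-phase proteins were Cfhr2, Gm4788, Saa3 and Lbp, and interferon and innate immune proteins were Slfn2, Oas1g and Trim30d. Transcription factors were Gata4, Nkx2-5 and Sim1, and Glrp1, Serpinb9c and Arhgap22 stand outside these classes. No WT library held more than 6 exonic reads of any of these genes, and no KO library fewer than 37. In WT, 10 of the 18 had 3 or fewer reads over both libraries, of which Mal and Olr1 had 0. The median log2 ratio of KO to WT means, with 1 added to each, was 5.18. Over the 11901 genes with a mean of at least 10 it was −0.01, and 6.75% of those genes were at least 2-fold higher in KO. The rule fixed that the ratios of the 18 are high, so nothing is read from this contrast. Just inside the WT threshold lay Arhgap22 and Muc13, both at 4.76 normalised counts, and Gfra1 at 4.03. Just outside lay Ripk4 at 5.06, Rhou at 5.14 and Qrfp at 5.40. At the KO threshold, Arhgap22 at 58.1, Sim1 at 60.0 and Serpinb9c at 60.0 lay just inside, and Ccl5 at 44.5, Fbxl7 at 41.5 and Jag2 at 41.2 just outside.

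Among the membrane proteins, Mal, a proteolipid of lipid rafts that sorts proteins to the cell surface, had 0 exonic reads in both WT libraries and 672 and 372 in KO. Against a floor of 3 reads over the group that is at least 328-fold higher, and per exon length Mal was the highest of the 18 in KO, at 8.50 RPKM, which divides reads by depth and by the exon length in GENCODE M21. Muc13, a transmembrane mucin of gut epithelium, had 3 and 6 reads in WT and 236 and 217 in KO, a 47.5-fold ratio. Olr1, the receptor for oxidized low-density lipoprotein on endothelium and macrophages, had 0 and 0 reads in WT and 42 and 122 in KO, at least 51.6-fold higher. Its KO libraries lay 3.27-fold apart after scaling, the widest gap of the 18, and Mal was 1.60-fold higher in the other KO library. Gfra1, the co-receptor for the growth factor GDNF, went from 5 and 3 reads to 56 and 88. Flrt2, an adhesion and guidance molecule of the cell surface, went from 1 and 2 reads to 68 and 57. For all 5 genes the lower KO library was several-fold above the higher WT library. In RNA of whole cultures, fewer cells that express a gene and less RNA per cell cannot be told apart.

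The promoter of Mal is shown because Mal also rose in Sox9 cells, as given further on. It is the RefSeq window of 250 bases before to 50 after the start on GRCm38.p6, chr2:127656646-127656945, minus strand, and the capitals mark GGAATG, the core letters of a TEAD site, 89 bases before the start.
Mal promoter: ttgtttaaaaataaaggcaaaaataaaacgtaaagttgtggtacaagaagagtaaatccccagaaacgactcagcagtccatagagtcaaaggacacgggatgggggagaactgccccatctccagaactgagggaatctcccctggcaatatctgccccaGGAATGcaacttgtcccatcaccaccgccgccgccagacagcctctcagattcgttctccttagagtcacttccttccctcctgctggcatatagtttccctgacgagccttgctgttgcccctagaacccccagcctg
These letters were found on either strand in 14.7% of 32851 promoters of the same length, so the match is a description and not a site. Of SOX letters only the form ACAATG was searched, on either strand, and it was not in this window. Other forms were not looked for.

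Of the complement and acute-phase genes, Cfhr2 encodes a complement-related protein of the blood. It had 2 and 1 exonic reads in WT and 128 and 258 in KO, a 121-fold ratio with a 95% counting interval of 41.2 to 592. Gm4788, which neighbours Cfhr2 on chromosome 1, had 3 and 2 reads in WT and 105 and 220 in KO, a 61.4-fold ratio. Both were more than 2-fold higher in KO library 2 than in library 1, at 2.27-fold and 2.36-fold. Of the 50-base windows of the Cfhr2 transcript, 35.3% occur in transcripts of other genes, and of those of Gm4788 19.6%. Where such reads were counted is not given in the sources used here, so the levels of Cfhr2 and Gm4788 are uncertain.

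The promoters of both genes are shown because they lie side by side and are alike. Both are RefSeq windows on GRCm38.p6, minus strand, Cfhr2 at chr1:139858650-139858949 and Gm4788 at chr1:139781190-139781489, and the capitals mark letters of the form TTCNNNGAA, a gamma-activated site, which lies after the start in both.
Cfhr2 promoter: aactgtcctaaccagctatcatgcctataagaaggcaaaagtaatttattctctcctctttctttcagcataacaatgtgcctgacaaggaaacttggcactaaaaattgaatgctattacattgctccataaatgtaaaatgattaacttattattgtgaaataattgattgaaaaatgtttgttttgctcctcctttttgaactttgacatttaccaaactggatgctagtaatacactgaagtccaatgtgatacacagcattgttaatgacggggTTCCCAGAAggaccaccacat
Gm4788 promoter: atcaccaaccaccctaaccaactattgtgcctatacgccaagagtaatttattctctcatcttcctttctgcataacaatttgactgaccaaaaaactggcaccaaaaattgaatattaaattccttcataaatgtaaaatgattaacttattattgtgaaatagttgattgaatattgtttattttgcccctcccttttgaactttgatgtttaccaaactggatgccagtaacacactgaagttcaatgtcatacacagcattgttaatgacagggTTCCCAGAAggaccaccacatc
Aligned without gaps, they were identical at 66.6% of 299 bases. The letters TTCNNNGAA were in 5 of 18 promoter entries of the set and in 8.30% of all promoters.

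Saa3, a serum amyloid A protein of the acute-phase response that macrophages and fat cells also make, had 1 read in each WT library and 93 and 85 in KO. The KO libraries lay close together for this gene, at a ratio of 1.03 after scaling. Its relatives Saa1, Saa2 and Saa4 had 0 exonic reads in KO. Lbp, the serum protein that hands bacterial lipopolysaccharide to its receptor, had 0 and 1 reads in WT and 40 and 91 in KO, a 124-fold ratio with a counting interval of 21.8 to 4921 from a single WT read. Bpi, its neighbour in the genome, had 0 and 1 reads in KO.

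Of the innate immune genes, Slfn2, a Schlafen protein that keeps T cells and monocytes quiescent, had 3 and 1 reads in WT and 235 and 218 in KO, a 107-fold ratio. At 6.16 RPKM it was the second highest of the 18 per exon length in KO. Other Schlafen genes were expressed in both groups, with Slfn9 at 931 and 795 reads in WT and 1055 and 1231 in KO, and Slfn8 at 270 and 170 in WT and 202 and 221 in KO. Slfn8, Slfn9 and Slfn4, which neighbour Slfn2, did not pass limma. Oas1g, an interferon-induced synthetase of the oligoadenylates that activate RNase L, had 0 and 2 reads in WT and 100 and 50 in KO. Its neighbour Oas1a, with 6 and 1 reads in WT and 175 and 103 in KO, shares 54.1% of the 50-base windows of the Oas1g transcript, so the level of Oas1g is uncertain. For Oas1b the KO to WT ratio was 1.65 and it did not pass limma (0.73 ± 0.46, adjusted p = 0.314), and for Oas1c it was 1.45 with a counting interval of 0.894 to 2.37. Trim30d, a ubiquitin ligase of the interferon-induced Trim30 cluster, went from 3 and 4 reads to 63 and 70, and its neighbour Trim30a from 11 and 18 to 227 and 236. Trim30a rose by 3.87 ± 0.40 on the log2 scale (limma adjusted p = 0.00535).

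The promoters of Oas1g and Trim30d are shown for the letters of an interferon-stimulated response element, GAAA followed by any 2 bases and again GAAA, in capitals. They are RefSeq windows on GRCm38.p6, minus strand, at chr5:120887564-120887863 and chr7:104507800-104508099.
Oas1g promoter: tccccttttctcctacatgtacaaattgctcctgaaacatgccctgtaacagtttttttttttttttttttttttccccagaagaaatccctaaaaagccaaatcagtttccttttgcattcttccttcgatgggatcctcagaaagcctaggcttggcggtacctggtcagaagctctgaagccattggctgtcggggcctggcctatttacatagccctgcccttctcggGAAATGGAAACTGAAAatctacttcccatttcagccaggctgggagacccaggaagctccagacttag
Trim30d promoter: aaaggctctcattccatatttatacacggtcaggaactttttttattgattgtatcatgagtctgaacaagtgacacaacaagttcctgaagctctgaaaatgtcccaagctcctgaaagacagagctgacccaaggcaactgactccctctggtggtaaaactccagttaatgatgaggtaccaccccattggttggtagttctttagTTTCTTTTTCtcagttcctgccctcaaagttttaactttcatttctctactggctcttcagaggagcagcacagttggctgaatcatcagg
Oas1g held 2 overlapping copies, 18 and 12 bases before the start, and Trim30d 1 copy on the opposite strand, 41 bases before it. The letters were found, on either strand, in 4 of 18 promoter entries of the set, those of Gfra1 and Saa3 included, and in 3.44% of all promoters. RefSeq entries were matched for 16 of the 18 genes.

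Oas1g and Trim30d also belong to a wider list of 48 interferon response genes in the table, of which 46 are outside the set. Of 41 of these with enough reads, 20 rose in KO, 0 fell and 21 did not pass limma. Of all genes tested, 9.28% rose and 8.33% fell. Among the 20, Ccl5 (1 and 0 reads in WT) and Zbp1 (9 and 6) had WT means below the minimum mean and reached it only through KO. The list median was 1.35 on the log2 scale, against −0.01 for all genes tested. Ifi44 rose by 3.70 ± 0.33 (limma adjusted p = 0.00414), Oasl1 by 2.93 ± 0.33 (limma adjusted p = 0.00694) and Ifit1 by 2.86 ± 0.36 (limma adjusted p = 0.00876). Irf7, a transcription factor of the response, did not pass at 1.02 ± 0.39 (limma adjusted p = 0.130). Mx1, another classical interferon gene, had 0 and 2 reads in KO. The list was chosen with earlier results of these libraries known and is no independent evidence of its direction.

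Of the 3 transcription factors, Gata4, a zinc finger protein of heart and gut development, had 2 and 1 exonic reads in WT and 129 and 127 in KO, an 80.6-fold ratio. Gata6, which often acts beside Gata4, was present in both groups, at 88 and 57 reads in WT and 49 and 64 in KO, and Gata5 had 0. Nkx2-5, a homeodomain protein of early heart muscle, had 2 and 0 reads in WT and 57 and 67 in KO. Nkx2-3 went from 0 and 2 reads to 12 and 8. Sim1, a bHLH-PAS protein of hypothalamic neurons, had 1 read in each WT library and 43 and 78 in KO, and its relative Sim2 had 1 and 3 in WT and 1 and 5 in KO. Per exon length Sim1 was the lowest of the 18 in KO, at 0.317 RPKM, against 1.59 for Gata4 and 1.84 for Nkx2-5. Of other heart genes, the myosin Myh6 had 0 reads in both groups, and the troponin Tnnt2 had 12 and 1 reads in WT and 38 and 17 in KO, at 2.34 ± 0.95 on the log2 scale, and did not pass (limma adjusted p = 0.148).

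Of the remaining genes, Glrp1, a protein rich in glutamine repeats, went from 4 and 3 reads in WT to 97 and 61 in KO. Serpinb9c, from a cluster of serpins related to the granzyme B inhibitor, went from 6 and 2 to 87 and 39. Its relatives differed in the same direction at various levels, with Serpinb9 at 238 and 206 reads in WT and 967 and 706 in KO, and Serpinb9g at 0 and 0 in WT and 15 and 11 in KO. Serpinb9e rose by 4.16 ± 0.76 on the log2 scale (limma adjusted p = 0.0231), and Serpinb9d, at 1.36 ± 0.67, did not pass (limma adjusted p = 0.218). Of the windows of Serpinb9c, 18.9% are shared with the gene Gm11385, so its level is uncertain. Arhgap22, which switches off the small GTPase Rac, had 3 and 6 reads in WT and 85 and 37 in KO, the smallest ratio of the 18 at 12.8-fold (95% counting interval 6.52 to 28.7).

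**Figure D2:**
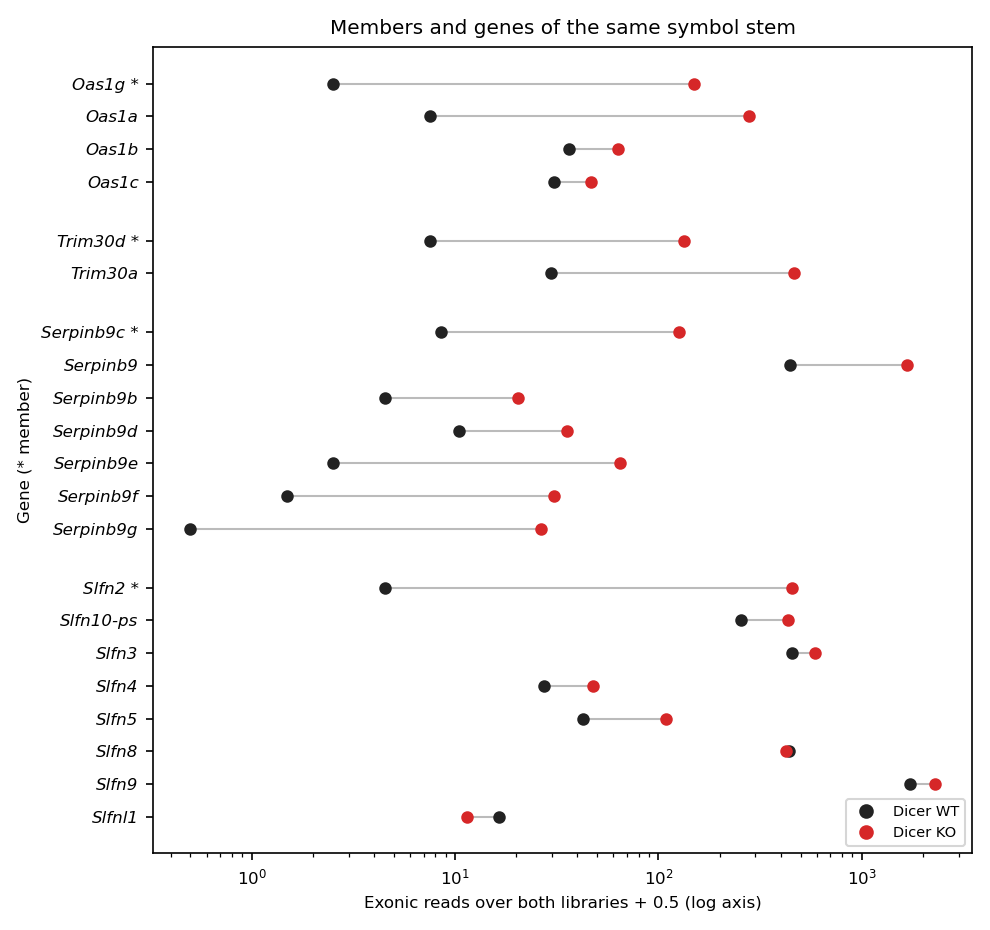
Exonic reads over both libraries plus 0.5 (log axis) of 4 genes of the set, marked with a star, and of relatives with the same symbol stem that have more than 3 reads in Dicer WT and Dicer KO together. Trim30a, Oas1a and the Serpinb9 genes lie higher in KO beside their relatives, while Slfn8 and Slfn9 lie at similar levels in both groups.

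The nearest 2 protein-coding genes on each side of every gene, by RefSeq order, gave 68 neighbours outside the set. Of 32 with enough reads, 9 rose in KO, 0 fell and 23 did not pass limma, which is 28.1% against 9.28% of all genes tested. Among the 9 were Kcnt2, Sel1l, Galc, Fam167a, Heg1, Oas1a, Serpinb9e and Trim30a, and Oas1a, Serpinb9e and Trim30a are relatives of the gene they adjoin. Oas1a itself lay past both thresholds of the rule and was set aside by name, so its rise was fixed beforehand. Serpinb9e and Fam167a had WT means below the minimum mean and reached it only through KO. The comparison is also the one that chose the set, so nothing is read from the share of 28.1%. Kcnt2, a potassium channel gene near Cfhr2, rose by 2.49 ± 0.24 (limma adjusted p = 0.00498), and Heg1, next to Muc13, by 1.60 ± 0.21 (limma adjusted p = 0.00968). The other side of Muc13 held Itgb5, which did not pass at 0.23 ± 0.16 (limma adjusted p = 0.363). Of the neighbours of Mal, Zfp661 and Mrps5 did not pass and Mall, a relative of Mal, had 0 reads. The 36 neighbours below the minimum mean were not tested.

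The intronic table holds 17 of the 18 genes, all but Gm4788, and shows whether the exonic difference came with reads from introns. These values come from the same cells as the rule and are a description. The median intronic log2 ratio of all 17, with 1 added, was 3.21. Over the 12579 genes tested, all with an intronic mean of at least 10, it was −0.00. Only 9 of the 17 reach that mean, so these are unlike sets. In KO, 15 of the 17 had more than 3 intronic reads and 14 exceeded 1 intronic CPM, while 10 had 3 or fewer intronic reads in WT and 5 of these had 0. Of 9 with an intronic mean of at least 10, 8 were at least 2-fold higher in KO, where 4.79% of all genes tested were. All 8 had WT means below that minimum and reached it only through KO, so nothing is read from this count. Mal had 0 intronic reads in WT and 120 and 82 in KO, at least 68.1-fold higher. Gata4 had 4 and 5 in WT and 67 and 97 in KO, and Muc13 9 and 7 in WT and 92 and 81 in KO. Each of these KO libraries lay above both WT libraries.

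Flrt2, Sim1, Glrp1 and Arhgap22 had close to as many intronic as exonic reads in KO. Intronic reads made up 52.9% of the KO reads of Arhgap22 (Wilson 95% interval 46.8 to 58.9), 50.5% of those of Glrp1, 50.4% of those of Sim1 and 48.6% of those of Flrt2. At the other end stood Cfhr2 with 0 intronic reads in all 12 libraries, which allows a share of up to 0.985% in KO by the Wilson interval. Gfra1 had 1 intronic read in KO, a share of 0.690% (Wilson 95% interval 0.122 to 3.80), next to 56 and 88 exonic reads. Slfn2 had 4.63% and Nkx2-5 6.06% of its KO reads in introns. How introns were defined is not given in the sources used here, so the low shares cannot be read further.

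Trim30d stood apart from the others, with 214 and 164 intronic reads in WT and 257 and 223 in KO. That is a 1.28-fold ratio (95% counting interval 1.12 to 1.47) next to a 17.9-fold ratio in exons (8.47 to 45.5), and 78.3% of its KO reads were intronic. Its intronic reads were present in all groups, at 19.8 intronic CPM in WT, 25.4 in KO, 20.4 in Sox9 cells, and 32.3 to 33.0 in Tead4, vector and Pbx3 cells, so KO was not the highest. In RefSeq the gene overlaps the pseudogene Gm16464, and whether those reads belong to it was not tested.

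**Figure D3:**
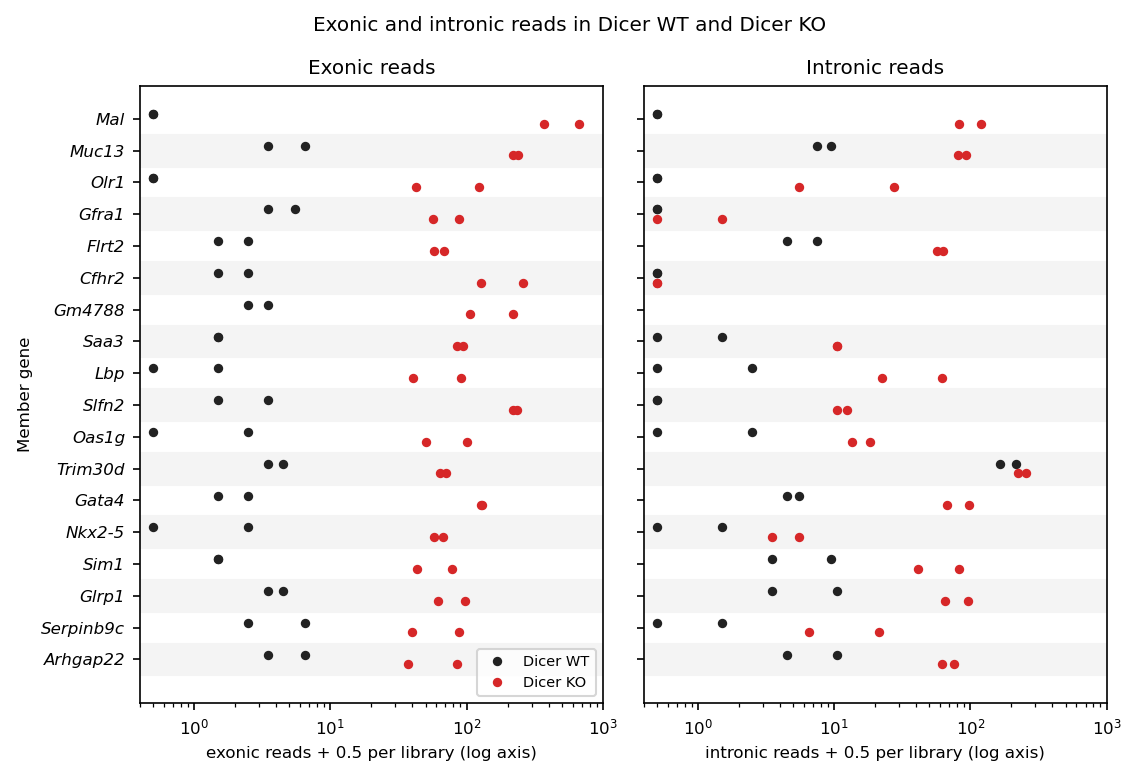
Exonic (left) and intronic (right) reads plus 0.5 of each library on log axes, with Dicer WT in black and Dicer KO in red, for the 18 genes in order of function class. Most genes are separated in both panels, Trim30d has 164 to 257 intronic reads in all 4 libraries, and Cfhr2 has 0 intronic reads.

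The KO libraries differed between each other for many of these genes. After scaling, 4 genes were at least 1.5 times higher in KO library 1 (Oas1g, Mal, Serpinb9c and Arhgap22), 6 were that much higher in library 2 (Cfhr2, Gm4788, Lbp, Olr1, Gfra1 and Sim1), and 8 lay within 1.5 times. Of all genes tested 11.9% were that far apart, and of the 3279 genes with a KO mean from 50 up to that of Mal, 15.4% were. Slfn2, Saa3, Muc13, Gata4 and Flrt2 were within 1.11 times between the KO libraries.

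The vector cells are WT cells that the rule did not use, and they show which of these genes were near-silent in other WT cells. There 11 of the 18 lay below 0.235 CPM, the level of the WT threshold, and 7 at or above it. Of all 10706 genes below 5 in WT, 98.0% lay below that level in vector cells. Most of those have no WT read, and of the 2467 with at least 1, 8.07% were at or above it. Mal had 0 reads in both vector libraries, Olr1 had 1 and 0, Saa3 0 and 1, and Slfn2 1 and 1. These genes were near-silent in vector cells as in WT cells.

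Sim1 and Flrt2 were not silent there. Sim1 had 84 and 29 reads in the vector libraries, 5.77 CPM over both, which is above its 2.74 CPM in KO and 120 times its WT level of 0.0479 CPM. Flrt2 had 37 and 10 reads, 2.40 CPM, next to 2.83 CPM in KO. These 2 genes lay at or above the level of the KO threshold in vector cells, where 0.0467% of all genes below 5 in WT did, and 0.203% of those with a WT read. Nkx2-5 followed with 10 and 5 reads, 0.766 CPM, and Gfra1 and Trim30d with 7 and 2 reads each, 0.459 CPM. WT and vector cells, which were normalised in separate tables, were not tested against each other.

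Across all groups, 15 of the 18 genes had both KO libraries above all 10 other libraries in CPM, where 16.6% of all genes tested did. The rule fixed that these genes lie above the WT libraries, so nothing is read from that share. The exceptions were Flrt2, Sim1 and Trim30d. For Slfn2 the lower KO library, at 10.0 CPM, was 61.3 times the highest of the 10 others, for Olr1 19.7 times and for Muc13 18.2 times. For Gfra1 it was 1.23 times and for Mal 1.55 times, since both were present in Sox9 cells.

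**Figure D4:**
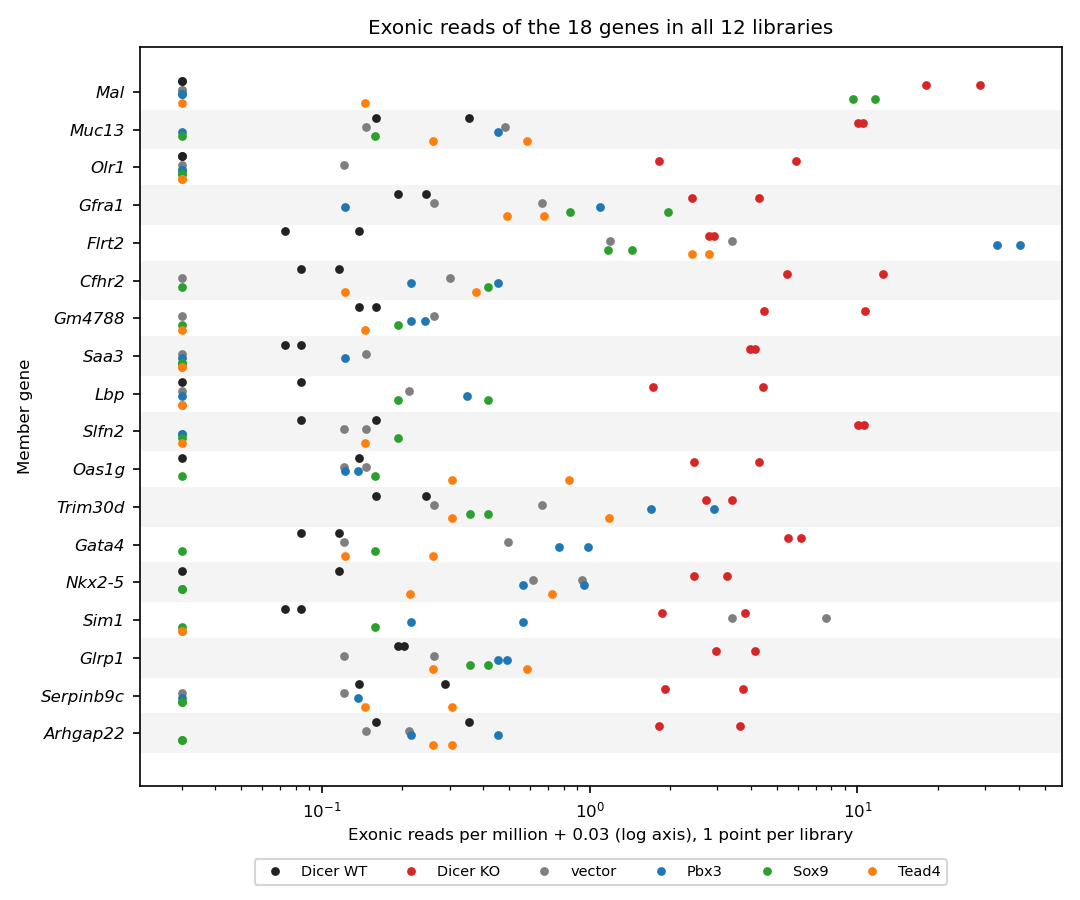
Exonic CPM plus 0.03 (log axis) of the 18 genes in all 12 libraries, 1 point per library, coloured by group. Both KO libraries lie to the right of the other 10 for 15 genes, while Pbx3 libraries lead for Flrt2, vector libraries reach above KO for Sim1, and the higher Pbx3 library lies among the KO libraries for Trim30d.

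The 3 factor tables compare WT cells given Pbx3, Sox9 or Tead4 with the same vector libraries, so the 3 comparisons share their controls. Most of the set was too low there to test. A mean of at least 10 normalised counts over both groups was reached by 3 genes for Pbx3 (Flrt2, Sim1 and Trim30d), 3 for Sox9 (Mal, Sim1 and Flrt2) and 2 for Tead4 (Flrt2 and Sim1). A gene low in vector cells reached it only through the factor cells, as Mal and Trim30d did. Sim1 reached it only through the vector cells, with means of 0 to 3.51 normalised counts in the factor cells. Limma called 0 of 3 for Pbx3 (3 at an unadjusted p under 0.05), 2 of 3 for Sox9 and 0 of 2 for Tead4 (1 unadjusted), where it called 0.00896%, 0.945% and 0.206% of all genes tested. By the adjusted p in the authors' deposited tables, 1, 2 and 1 of the set passed, where 0.102%, 1.14% and 1.7% of all genes did. The 2 genes called for Sox9, Mal and Sim1, each reached the minimum through 1 group only, so nothing is read from that count.

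Mal rose in Sox9 cells. It had 0 reads in both vector libraries, 90 and 59 in the Sox9 libraries, 0 in Pbx3 cells and 0 and 1 in Tead4 cells. Both Sox9 libraries stood far above all other WT-derived libraries, at 10.7 CPM over both, next to 23.6 CPM in KO. The limma difference was 6.44 ± 0.59 on the log2(normalised count + 1) scale (adjusted p = 0.00326), and against the floor Mal was at least 70.0-fold higher. The authors' deposited table gave an adjusted p of 6.45e-18. Intronic reads of Mal were 0 in vector cells and 16 and 9 in Sox9 cells, with an adjusted p of 0.00415 in the authors' deposited table. In KO cells Sox9 itself had 36 and 231 reads, against 67 and 347 in WT.

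In Sox9 cells Sim1 fell by 4.90 ± 0.74 on the log2 scale (limma adjusted p = 0.0305, and 0.0141 in the authors' deposited table). From 84 and 29 reads in vector cells it stood at 1 and 0 with Sox9, 0 and 0 with Tead4 and 2 and 5 with Pbx3. All 6 factor libraries lay below both vector libraries. With Tead4 the limma difference was −5.66 ± 0.71 and did not pass (adjusted p = 0.0660), while the authors' deposited table gave an adjusted p of 0.00127, and against the floor Sim1 was at least 37.6-fold lower. With each library left out in turn, the limma difference for Tead4 ranged from −6.20 to −5.12. With Pbx3 the limma difference of Sim1 was −3.61 ± 0.67 and passed in neither (limma adjusted p = 0.877, and 0.411 in the authors' deposited table). Intronic reads of Sim1 numbered 53 and 20 in vector cells and 3 and 8 with Sox9. In the authors' deposited tables the intronic difference of Sim1 passed with none of the factors (adjusted p = 0.414 with Sox9 and 0.0773 with Tead4). The WT cells had 1 and 1 exonic reads of Sim1, 0.0431 and 0.0540 CPM. Pbx3 cells stood at 0.185 and 0.533 CPM and vector cells at 7.63 and 3.38. The rule fixed the low WT level, so the WT cells cannot show which group stood apart for Sim1.

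Flrt2 had its highest level of all 6 groups in Pbx3 cells, with 438 and 312 exonic reads against 37 and 10 in vector cells and 68 and 57 in KO. The difference from vector was 4.14 ± 0.49 on the log2 scale, and its call depended on the test. Limma gave an adjusted p of 0.316 (unadjusted p = 0.000194), and the authors' deposited table gave 2.55e-17 for exonic and 9.36e-09 for intronic reads. With each library left out in turn, the limma difference ranged from 3.45 to 4.83. Intronic reads numbered 14 and 17 in vector cells and 222 and 131 with Pbx3. With Sox9, at 11 and 7 exonic reads, and with Tead4, at 26 and 24, Flrt2 did not pass (limma adjusted p = 0.699 and 0.802), and the sign of both small differences depended on 1 vector library. Without vector library 1 the Sox9 value went from −0.62 to 0.060, and without vector library 2 the Tead4 value went from 0.34 to −0.35.

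Trim30d had 18 and 27 exonic reads in Pbx3 cells against 7 and 2 in vector cells, a difference of 2.22 ± 0.68 that did not pass (limma adjusted p = 1.0), and its intronic reads were 129 and 139 against 135 and 128. The other genes stayed below the minimum mean. Nkx2-5 had 10 and 5 reads in vector cells and the same in Pbx3 cells, 2 and 6 in Tead4 cells and 0 in both Sox9 libraries, at an adjusted p of 0.786 in the authors' deposited table. Gfra1 had 15 and 5 reads in Sox9 cells against 7 and 2, and Gata4 8 and 9 in Pbx3 cells against 1 and 4. Oas1g had 3 and 7 reads in Tead4 cells against 1 and 1, a ratio of 5.01 with a counting interval of 1.07 to 47.0. Olr1, Saa3, Slfn2, Cfhr2, Gm4788, Lbp, Muc13, Glrp1, Serpinb9c and Arhgap22 had at most 6 reads in any of the 8 vector and factor libraries.

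Counted by level, 9 of the 18 lay below the WT threshold in Pbx3 cells, 12 in Sox9 cells and 10 in Tead4 cells. Of all genes below 5 in WT, 97.7%, 97.6% and 97.8% did, and most of those have no WT read. At or above that level lay 9, 6 and 8 of the 18. Of genes below 5 in WT with a WT read, 9.36%, 8.84% and 8.31% did. At or above the level of the KO threshold stood Flrt2 in Pbx3 and in Tead4 cells and Mal in Sox9 cells, 1 gene per factor. Of all genes below 5 in WT, 0.0374% stood there in Pbx3, 0.280% in Sox9 and 0.112% in Tead4 cells, and of those with a WT read 0.162%, 0.689% and 0.446%.

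**Figure D5:**
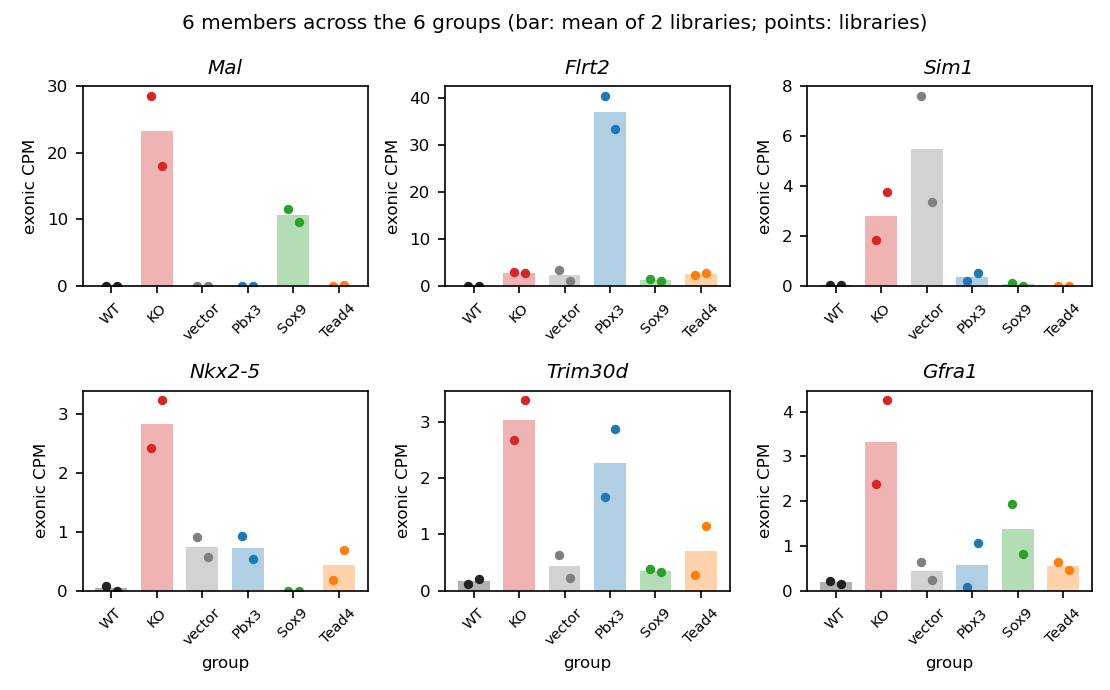
Exonic CPM of 6 genes of the set in the 6 groups, with the mean of 2 libraries as a bar from 0 and each library as a point. Mal is present in KO and Sox9 cells, Flrt2 is highest in Pbx3 cells, Sim1 is present in KO and vector cells, and Nkx2-5 is at 0 in both Sox9 libraries.

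MicroRNA seed matches in the 3′ UTRs of GENCODE M21 transcripts were counted for 7 families common in mesenchymal cells. Of the set, 1 gene held a let-7 match (Olr1), where 10.9% of 10566 genes did, and 3 held a miR-125 match (Gata4, Oas1g and Sim1; 16.1%). Matches of miR-26 were in 3 (Flrt2, Olr1 and Sim1; 11.8%), of miR-199 in 2 (Flrt2 and Lbp; 8.89%), of miR-21 in Sim1 (8.13%) and of miR-30 in Mal (16.6%), and miR-29 matched 0 (16.3%). The let-7a and miR-30a sequences from RefSeq, seed in capitals, are shown with the sites in Olr1 and Mal, the 2 genes at 0 reads in WT, match in capitals.
let-7a: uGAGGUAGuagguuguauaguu
Olr1 site: tcagtctcctCTACCTCagtatgcctc
miR-30a: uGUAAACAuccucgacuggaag
Mal site: ttgggtgttaTGTTTACcttctgtcaa
Mature microRNAs were not measured in these libraries, and a match is not a shown site of action. Of 17 tested genes in a mixed list of 30 oncofetal and let-7 target genes outside the set, 11 rose in KO and 0 fell. The other 13 were below the minimum mean and not tested, and 10 of these had 0 reads in KO. Among those 10 were Igf2, at 11 and 17 reads in WT, and Zfp583, at 13 and 18. Of all genes tested, 9.28% rose and 8.33% fell. This list was again chosen with earlier results known. Seed matches were not counted for the list, and a link to let-7 was not tested.

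Other lists were read the same way. Of 39 germline genes in the table that promoter methylation often silences, 6 had enough reads, 0 rose, Tex15 fell and 5 did not pass limma, and 19 had 0 reads in KO. Of 30 secreted ligands of the TGF-beta and FGF families, 7 had enough reads, 0 rose, Inhbb fell and 6 did not pass limma. Genes with enough reads include some well expressed in WT, such as Tex15 at 2654 and 2072 reads and Fgf7 at 8389 and 3343. These counts therefore say little about silent genes. CpG-rich promoters, with an observed to expected CpG ratio of at least 0.6, were found in 2 of 18 promoter entries of the set (Flrt2 and Sim1), where 35.8% of all promoters were that rich. These entries cover 16 of the 18 genes, and Gata4 and Lbp have none. Flrt2 and Sim1 are also the 2 genes of the set at or above the level of the KO threshold in vector cells. Whether the CpG ratio has to do with that level was not tested.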

How the data were processed

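Strand-specific, single-end libraries were made of total RNA, per the labels' protocols. The submitters' processing notes name Bowtie2, the mm9 build and DESeq 1.10.1. The 8 deposited tables give exonic and intronic reads per gene for 4 comparisons. Their signal columns are group means of read counts scaled by size factors, made by the authors, per the file headers. The fold column, as deposited, is the ratio of those means, and the log2 column is its log2, as the authors deposited it, with no pseudocount. The p-value columns are the authors' own test, per the file headers. Not given in the sources used here are the gene annotation, the counting rule and the handling of shared reads.

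Whole reads of 2 libraries per group were recovered from the means, with a unique solution for 100% of 23227 exonic and 23231 intronic genes at a tolerance of 1e-09. The recovery and the test were tested on simulated data. Library 1 is the exonic library with the larger size factor; intronic libraries were matched to it by the direction of their difference across genes, and the numbers pair nothing between groups. All deposited columns used had a group (0 unmapped).

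Genes were tested with limma 3.58.1 (R 4.3.3), its trend option on, using log2(normalised count + 1) of genes with a mean of at least 10, 2 libraries against 2, Benjamini-Hochberg adjusted, with a threshold of 0.05; "rose" and "fell" mean that it passed. Values with ± are limma log2 differences and standard errors. The members and lists were chosen with earlier results of these data known. Limma on lists and neighbours in KO was added after the data were seen. Named were all members, the genes beside each threshold, relatives of the same symbol stem, neighbours, and genes of the lists. Ratio intervals are exact 95% counting intervals, shares have Wilson intervals, and floors are 3 reads over the group; all cover counting error only. Promoters, microRNAs and gene order came from RefSeq GRCm38.p6 and transcripts from GENCODE M21, not from the files' build. Alternatives were other thresholds, pseudocounts, filters, scalings, the authors' adjusted p and leaving out each library. Some genes of the lists, relatives and neighbours are not reported here by name.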

Additional observations from a re-analysis of the deposited data

How the results depend on the processing

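With other thresholds the set of 18 genes became 11 below 2 normalised counts in WT, 36 below 10, 6 at 100 or more in KO and 38 at 25 or more. Leaving out 1 WT or KO library gave 16 to 27 genes, the most without WT library 2. At 2 intronic CPM 9 genes were counted instead of 14. In vector cells 7 genes had more than 3 reads, 3 had more than 10, and 4 to 6 remained without 1 vector library, 4 without library 1.

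Counts over all genes moved widely in the factor tables. For Pbx3 limma called 1 gene, 2 to 15 without 1 library, and the authors' adjusted p 15, and of the set 0, 0 to 1 and 1. For Sox9 it called 105, with 165 without a filter, 53 at a mean of 50, 71 to 1102 without 1 library (1102 without vector library 1) and 167 by the authors. Of the set it called 2, and 0 at a mean of 50, where neither reaches the filter. For Tead4 it called 23, with 91 without a filter, 14 at a mean of 50, 5 to 2409 without 1 library (2409 without vector library 1) and 250 by the authors, and of the set 0, then 1 without a filter, 0 to 1 without 1 library and 1 by the authors. Without 1 library, Flrt2 went from −0.62 to between −1.30 and 0.060 under Sox9, positive without vector library 1, and from 0.34 to between −0.35 and 1.03 under Tead4, negative without vector library 2. The cause of these moves was not tested. Mal and Sim1 under Sox9 passed in every alternative run in which they were tested. A left-out library leaves 1 in its group, which is assumed to vary like the other group. No paired analysis was possible because the labels give 1 sample per group and the recovered libraries carry no shared numbers.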
